A study of Mus musculus with 12 samples.

Results

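The comparison described here was that of the arrays titled 42Y with the arrays titled 16Y, which are 4 of the 12 arrays of the series and were taken by their titles. Each group held 2 arrays. Both are KK-Ay groups, an obese and diabetic line on the KK background that carries the yellow allele A-y of agouti, so that all 4 arrays share the allele and no array of this comparison is a non-diabetic control. The number 42 is the age in weeks that the methods give for the mice analysed, whereas no source used here gives the unit of the number 16, the sex, or whether the 2 arrays of a group represent different animals. The p-values therefore measure the spread between these arrays, which may be technical, and age cannot be told apart from any other difference between the groups.

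The sample records call the 16Y arrays T2D and the 42Y arrays control, and the 42Y arrays were taken as KK-Ay by the group names of the study's supplement. Agouti, the gene that A-y drives in all tissues, had log2 signals of 6.89 and 6.80 in 16Y and 6.96 and 6.96 in 42Y, against 5.21 to 5.51 in the arrays of KK mice aged 42 weeks (42W KK) and of the controls labelled 1. The difference between 42Y and 16Y was 0.11 (adjusted p = 0.78). Raly (0.02, adjusted p = 0.97) and Eif2s2 (0.21, adjusted p = 0.47), the neighbours that the A-y deletion reaches, did not pass either. The other cluster of Eif2s2 gave 0.05 (adjusted p = 0.89). The methods name liver and the records name blood. Median signals of the 10 hepatocyte markers were 12.94 and 12.98 in 16Y against 13.10 and 13.07 in 42Y, and those of the 13 T and NK cell markers lay between 3.56 and 4.07 in the 4 arrays. The Y-linked genes Eif2s3y, Uty and Kdm5d had signals of 5.50 to 7.85 and Xist of 2.29 to 2.91 in these arrays.

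In liver the nuclear receptor PPAR alpha is activated by fatty acids and switches on genes of fatty acid oxidation, among them the Cyp4a hydroxylases and the perilipins that coat lipid droplets. Many liver genes also follow the circadian clock, in which the proteins of Arntl and Clock activate genes through E-box elements and Nr1d1 and Nr1d2 repress Arntl in turn. Heat shock chaperones and immediate early genes are sets that respond to stimuli within a short time.

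Signals were compared with limma on deposited log2 values, in a fit of 5 group means over 10 arrays that shares the spread, and a difference was called at an adjusted p under 0.05 (Benjamini-Hochberg over 35556 transcript clusters). Of these clusters 186 (0.523%) passed, with 58 (0.163%) higher and 128 (0.36%) lower in 42Y. At the level of genes, where each gene is represented by its brightest cluster with a single symbol, 73 of 19938 (0.366%) passed, 42 (0.211%) higher and 31 (0.155%) lower. The lower clusters held 50 without a gene symbol that carried identical values on every array, with a difference of -2.05. Counting identical clusters once left 58 called clusters, 25 higher and 33 lower, and 33 of the 73 genes, 17 higher and 16 lower. The other genes then had adjusted p up to 0.065. The count also depended on which arrays entered the limma fit. Without 42Y-1 it was 123 and without 42Y-2 it was 308, without 1 array of another group it lay between 0 (either 16Y array) and 7, and with the 4 arrays alone it was 0, where 3481 clusters had an unadjusted p under 0.05.

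**Figure D1:**
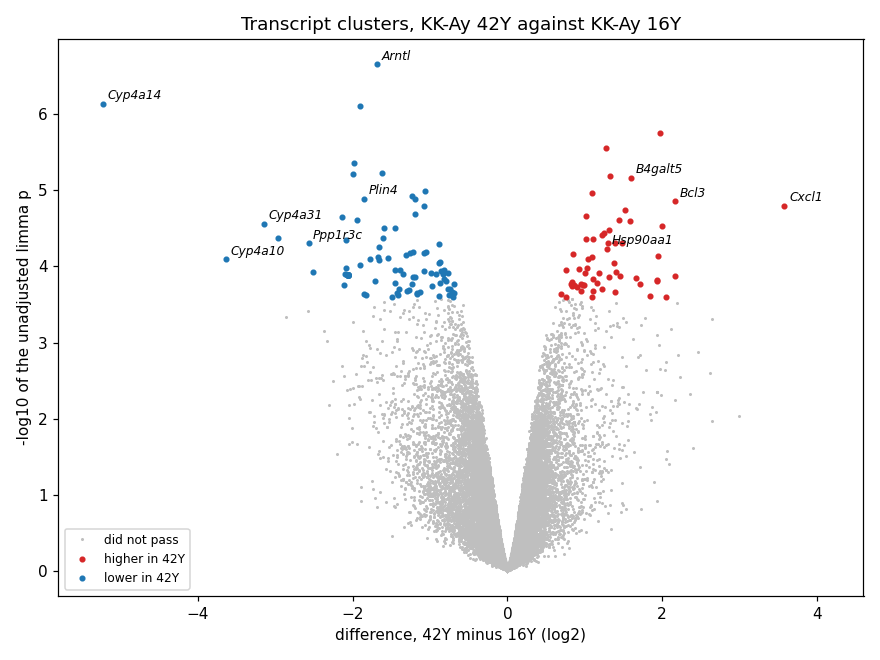
Difference between 42Y and 16Y (log2, horizontal) against -log10 of the unadjusted limma p (vertical) for 35556 transcript clusters, with 58 called clusters higher in 42Y in red and 128 lower in blue. Cyp4a14 at -5.22 and Cxcl1 at 3.58 lie at the 2 ends.

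The arrays within a group correlated at 0.983 in 42Y and 0.988 in 16Y, and those between the groups at 0.980 to 0.982. The array medians were 4.79 and 4.75 in 42Y against 4.87 and 4.84 in 16Y, and the median difference over genes was -0.02. Subtracting each array's median gave 96 higher and 104 lower clusters in place of 58 and 128, so the balance between the directions depended on the scaling.

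The largest fall was in genes of fatty acid oxidation. Among 22 measured genes in the PPAR alpha and oxidation list, 4 were called as lower and 0 as higher, beside 0.155% and 0.211% of all genes. In the list 13 had an unadjusted p under 0.05, all of them lower, where 6.52% of all genes were lower at that level. The median difference of the list was -0.39. Cyp4a14, a hydroxylase that starts the omega-oxidation of fatty acids, had signals of 9.24 and 9.53 in 16Y and of 3.72 and 4.61 in 42Y. This was a difference of -5.22 (standard error 0.36, 95% confidence interval -6.05 to -4.39, adjusted p = 0.0090) or 37.3-fold, the largest of any gene in either direction. The 16Y arrays lay above all others, including 7.94 and 8.08 in 6Y and 5.94 and 6.50 in 42W KK, whereas the 42Y arrays lay near the 4.04 and 4.83 of the controls. The 6Y arrays were grouped by their titles, which carry the letter Y as those of 16Y and 42Y do. The controls were grouped by their genotype label in the records. Strain and age were not established here for 6Y or for the controls.

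Cyp4a10 and Cyp4a31, near relatives of Cyp4a14 whose probes may share transcripts, followed the same order. Cyp4a10 was 9.29 and 9.38 in 16Y against 5.03 and 6.37 in 42Y, a difference of -3.64 (standard error 0.48, adjusted p = 0.035). Cyp4a31 was 9.56 and 9.21 against 5.78 and 6.69, a difference of -3.15 (standard error 0.36, adjusted p = 0.035). In both genes the 16Y arrays again exceeded the other 8 arrays. Acot1, a cytosolic acyl-CoA thioesterase induced by PPAR alpha, was 7.13 and 7.35 in 16Y against 4.68 and 5.57 in 42Y, a difference of -2.12 (standard error 0.31, adjusted p = 0.040). In Acot1 the 16Y arrays exceeded the other 8 as well, and the 42Y arrays also lay below the other 8. Acot1 did not pass with identical clusters counted once (adjusted p = 0.058).

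Outside the list, Crat, carnitine acetyltransferase, and Pex11a, a peroxisome proliferation factor, fell too, by 1.05 and 0.99 (adjusted p = 0.035 for each). They were named after their values were seen, and Pex11a lost its call with identical clusters counted once (adjusted p = 0.055). Other members of the list did not pass. Vnn1, a pantetheinase, was 6.85 and 6.65 in 16Y against 4.73 and 5.58 in 42Y (adjusted p = 0.053), and Ehhadh, a peroxisomal oxidation enzyme, was 10.48 and 10.49 against 9.97 and 9.96 (adjusted p = 0.11). Fgf21, a hormone that PPAR alpha induces in fasting, was 5.27 and 5.85 against 4.64 and 4.57 (adjusted p = 0.11). The groups did not overlap in any of these genes, which was so for 16 of the 22 members in this direction and for 24.0% of all genes.

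Lipid droplet genes included 2 that fell out of 18 measured, with none that rose and a median of -0.24, beside 0.155% of all genes called lower. At an unadjusted p under 0.05, 5 were lower and none was higher, where 6.52% of all genes were lower at that level. Plin5, which tethers droplets to mitochondria, was 9.56 and 9.85 in 16Y against 7.47 and 8.04 in 42Y, a difference of -1.95 (standard error 0.22, adjusted p = 0.035). Plin4, another droplet coat protein, was 8.26 and 8.29 against 6.17 and 6.66, a difference of -1.86 (standard error 0.19, adjusted p = 0.031). For Plin4 the 16Y arrays stood above all others in the fit and the 42Y level lay above the 5.93 and 5.58 of 6Y. For Plin5 the 16Y arrays also stood above all others, and the 42Y arrays were the lowest of the 10 in the fit. G0s2, an inhibitor of the triglyceride lipase Pnpla2, was 8.37 and 9.41 against 5.44 and 6.60 (difference -2.87, adjusted p = 0.066), and Plin2, the main droplet coat of hepatocytes, differed by -0.49 (adjusted p = 0.29).

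**Figure D2:**
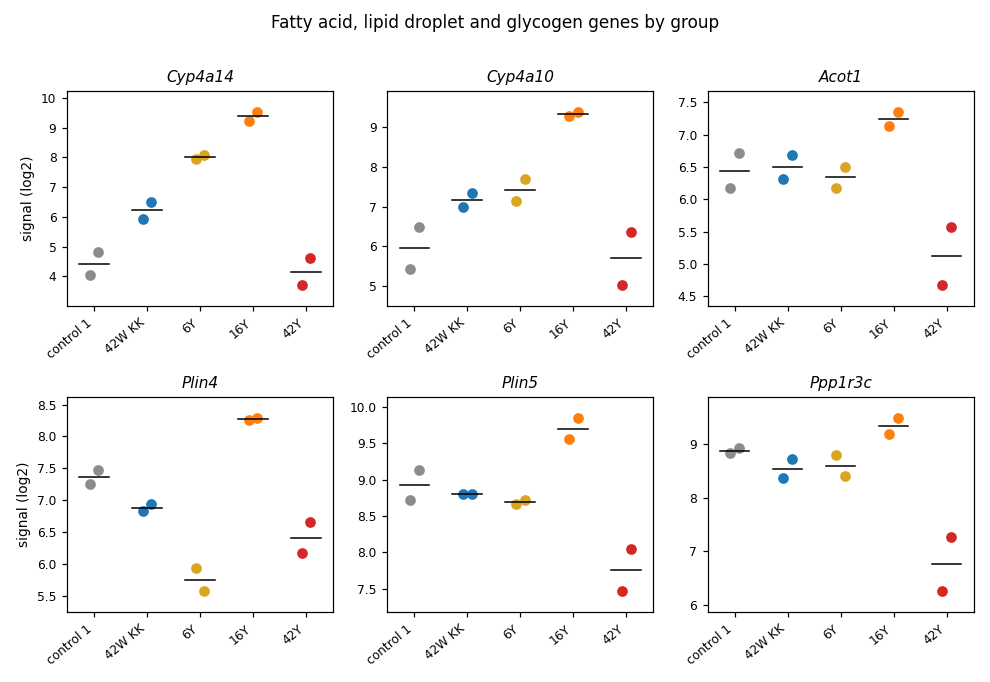
Log2 signal of Cyp4a14, Cyp4a10, Acot1, Plin4, Plin5 and Ppp1r3c in each array (points) with group means (lines), by group. The 16Y arrays are the highest in every panel, and the 42Y arrays are also the lowest for Acot1, Plin5 and Ppp1r3c.

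Several regulators of glucose, bile acid and sterol metabolism fell as well. Ppp1r3c, a glycogen-targeting subunit of protein phosphatase 1, was 9.19 and 9.49 in 16Y against 6.26 and 7.27 in 42Y, a difference of -2.57 (standard error 0.32, adjusted p = 0.035). It was the only gene called among 22 of glycolysis, gluconeogenesis and glycogen, whose median was 0.04, and its relative Ppp1r3b was 9.02 and 8.83 against 7.32 and 8.29 (adjusted p = 0.15). Insig2, which retains the sterol sensor Scap in the endoplasmic reticulum, was 11.11 and 11.41 against 9.65 and 9.65, a difference of -1.61 (standard error 0.19, adjusted p = 0.035). Both genes were lower in 42Y than in the other 8 arrays.

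Cyp8b1, the sterol 12-hydroxylase that makes cholic acid, was 9.60 and 9.76 in 16Y against 8.03 and 8.42 in 42Y, a difference of -1.46 (standard error 0.20, adjusted p = 0.035). It was the 1 called gene of 15 in the list of bile acid synthesis and the FXR axis. Nr1i3, the xenobiotic receptor CAR, was 10.23 and 9.94 against 8.42 and 8.93, a difference of -1.40 (standard error 0.21, adjusted p = 0.043). Cyp2b10, the classical CAR target, was 11.55 and 11.55 against 11.02 and 10.88 (difference -0.60, adjusted p = 0.22), and in 42W KK it was 7.69 and 8.20. Cyp8b1 and Nr1i3 did not pass with identical clusters counted once (adjusted p = 0.055 and 0.061).

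Genes of cholesterol synthesis had higher means in 42Y in 19 of 20 members, with a median of 0.40, but none was called. At an unadjusted p under 0.05, 8 were higher and none was lower, beside 6.02% of all genes higher at that level. Sqle, squalene epoxidase, was 6.05 and 5.50 in 16Y against 6.74 and 7.92 in 42Y (difference 1.56, adjusted p = 0.21), and Lss, lanosterol synthase, was 6.43 and 6.35 against 7.04 and 7.38 (difference 0.82, adjusted p = 0.16). The list's median level was 7.57 and 7.37 in 16Y against 7.62 and 8.60 in 42Y, and 42W KK had 9.34 and 9.13. Array 42Y-1 thus lay near 16Y and array 42Y-2 about midway to 42W KK. Stard4, a sterol carrier, was 7.42 and 6.95 against 8.02 and 8.19 (adjusted p = 0.079). The 25 genes of fatty acid and triglyceride synthesis had no called member and a median of -0.01, with Acaca, acetyl-CoA carboxylase, at 7.88 and 7.92 against 8.42 and 8.36 (adjusted p = 0.12) and Elovl6, a fatty acid elongase, at 8.02 and 8.27 against 9.16 and 9.02 (adjusted p = 0.19).

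Genes of the circadian clock separated the groups in both directions. Of 21 measured members, 2 fell and 1 rose, beside 0.155% and 0.211% of all genes. At an unadjusted p under 0.05, 5 were lower and 9 higher (6.52% and 6.02% of all genes), and the median was 0.41. Arntl, which encodes BMAL1, was 7.30 and 7.38 in 16Y against 5.62 and 5.67 in 42Y, a difference of -1.69 (standard error 0.10, adjusted p = 0.0078), the smallest p of any gene. The other 8 arrays lay between 7.30 and 7.74, so that the 2 arrays of 42Y stood alone. Clock, its partner, was 9.06 and 9.13 against 8.29 and 8.46, a difference of -0.72 (standard error 0.11, adjusted p = 0.045). Bhlhe41, a repressor that competes for E-boxes, rose from 3.96 and 3.84 to 4.9 and 5.34, by 1.22 (standard error 0.18, adjusted p = 0.043).

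Dbp, a clock output factor that acts through D-boxes, was 6.26 and 6.18 in 16Y against 7.81 and 9.01 in 42Y, and its difference of 2.19 narrowly missed the threshold (adjusted p = 0.054). Nr1d1 was 8.20 and 9.15 against 10.47 and 10.21 (difference 1.66, adjusted p = 0.18) and Nr1d2 7.89 and 8.0 against 8.56 and 8.92 (difference 0.80, adjusted p = 0.12). Cry1, a repressor that peaks late in the cycle, was 7.23 and 7.04 against 6.04 and 6.61 (difference -0.81, adjusted p = 0.16). Of the period genes, Per2 was 6.04 and 5.73 against 6.78 and 6.43 (adjusted p = 0.14), while Per1 (adjusted p = 0.53) overlapped between the groups. Noct, a nocturnin phosphatase with a daily rhythm that stood outside the list and was named after its values were seen, rose from 6.96 and 6.65 to 8.21 and 8.0 (1.30, standard error 0.16, adjusted p = 0.035). Unlike Arntl and Clock, Noct did not pass between 42Y and 42W KK (7.86 and 7.71, difference 0.32, adjusted p = 0.37). No source used here gives the hour at which the tissue was taken, and its part in these and the metabolic differences was not tested. Clock and Bhlhe41 did not pass with identical clusters counted once, and Arntl and Noct did.

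The sequences around the start sites of 2 clock genes show the elements through which this loop is known to work. Promoters were taken from RefSeq (build GRCm38.p6) and cover 250 bases before and 50 after the start. The letters TAGGTCA, the site bound by ROR and by the products of Nr1d1 and Nr1d2, were in 2.61% of all 32851 promoters when both strands were searched, and CACGTG, the E-box, in 7.15%. Counted by gene, the shares were 2.97% and 8.09% of 27025 genes. Among the 20 clock genes with a promoter in the table, 2 held the first and 6 the second. The first was also in 3 of 19 listed chemokines, and the second in 3 of 19 listed heat shock chaperones. Arntl, which fell, carries this site shortly after its start (chr7:113207530-113207558, plus strand), and Ciart, a clock repressor, carries 3 E-boxes in the 120 bases before its start (chr3:95882229-95882348, minus strand). Capitals mark the matched letters.

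Arntl: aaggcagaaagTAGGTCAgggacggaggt
Ciart: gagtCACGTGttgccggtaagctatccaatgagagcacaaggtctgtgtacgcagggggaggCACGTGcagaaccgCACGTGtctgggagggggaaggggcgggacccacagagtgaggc

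Ciart itself was 6.05 and 7.28 in 16Y against 6.69 and 8.37 in 42Y, so that the groups overlapped (difference 0.86, adjusted p = 0.58). Its other cluster was 5.58 and 6.90 against 5.43 and 7.54 (difference 0.25, adjusted p = 0.91). The matches describe these windows and no binding was measured.

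**Figure D3:**
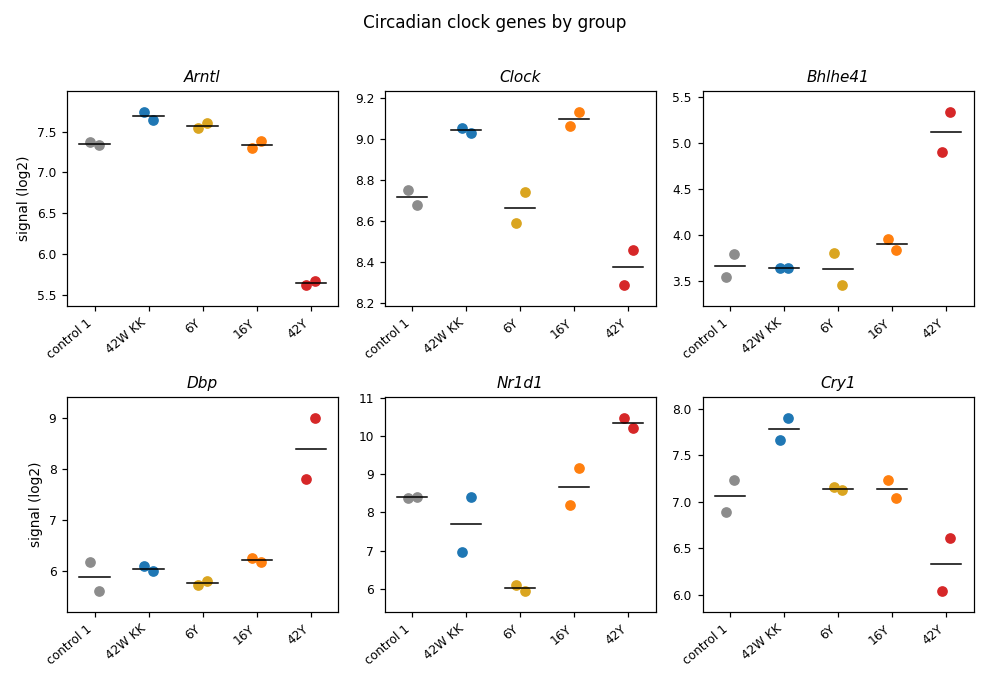
Log2 signal of Arntl, Clock, Bhlhe41, Dbp, Nr1d1 and Cry1 in each array (points) with group means (lines), by group. The 42Y arrays lie below all other arrays for Arntl, Clock and Cry1 and above them for Bhlhe41, Dbp and Nr1d1.

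Other genes that fell in 42Y below the level of every other array in the fit were of mixed function. Elovl3, a fatty acid elongase whose expression is rhythmic and male-biased, was 12.10 and 12.22 in 16Y against 10.98 and 10.94 in 42Y, a difference of -1.20 (standard error 0.12, adjusted p = 0.031). Clpx, a chaperone subunit of the mitochondrial protease, was 10.62 and 10.57 against 9.33 and 9.39, a difference of -1.23 (standard error 0.12, adjusted p = 0.031). H1f2, a linker histone, was 7.28 and 7.06 against 5.79 and 6.03, a difference of -1.26 (standard error 0.16, adjusted p = 0.035). Slc45a3, a sugar transporter of the prostein family, and Map2k6, a kinase that activates p38, fell by 1.71 and 1.46 (adjusted p = 0.039 and 0.040), calls that were lost with identical clusters counted once.

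Against the 42W KK arrays, which are given side by side because they share the 42Y arrays with the main comparison, the genes fell into different positions. Arntl, Clock, Elovl3, Clpx, Cyp8b1 and Crat also passed as lower in 42Y than in 42W KK. Their differences were -2.04, -0.67, -1.42, -1.49, -1.35 and -0.94. In that contrast 90 of 19938 genes passed as lower. For Plin4 and Pex11a the difference between 42Y and 42W KK was -0.47 and -0.30 and did not pass. In Cyp4a14 both steps passed, with 42W KK minus 16Y at -3.17 (adjusted p = 0.023) and 42Y minus 42W KK at -2.05 (adjusted p = 0.0499).

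Of the 31 genes that fell, the 42Y arrays lay below the other 8 arrays in 26. In the remaining 5 only the 16Y arrays lay outside, above the other 8 (Cyp4a14, Cyp4a10, Cyp4a31, Plin4 and Pex11a). Of the 42 that rose, 42Y lay above the other 8 arrays in 33, and in 3 only 16Y lay outside, below them (Hsp90aa1, Stip1 and Tgm1). In 6 neither pair lay outside. Genes with both pairs outside were counted under 42Y, in either direction. Among these were Ppp1r3c, Acot1, Plin5, Map2k6 and Clock, in which the 16Y arrays also lay above the other 8. These positions are a description, since the genes were called on the same arrays.

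The gene that rose most was Cxcl1, a chemokine that attracts neutrophils. It was 6.64 and 6.37 in 16Y against 10.62 and 9.55 in 42Y, a difference of 3.58 (standard error 0.37, adjusted p = 0.032) or 11.9-fold. All arrays of the fit outside 42Y lay between 6.28 and 7.30. Of 24 chemokines measured it was the only one called, and their median was 0.00. Bcl3, a nuclear cofactor of NF-kappa B, was 7.11 and 7.67 against 9.77 and 9.35, a difference of 2.16 (standard error 0.22, adjusted p = 0.031). Tifa, an adaptor that activates NF-kappa B through TRAF6, was 6.36 and 6.42 against 8.12 and 9.0, a difference of 2.16 (standard error 0.31, adjusted p = 0.035).

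Map3k8, the kinase Tpl2 of the same pathway, which was named after its values were seen, rose by 0.95 (adjusted p = 0.045). Hcar2, a receptor for beta-hydroxybutyrate and niacin found on myeloid cells, was 3.63 and 4.10 against 6.01 and 5.40, a difference of 1.84 (standard error 0.29, adjusted p = 0.049). Pvr, a nectin-like adhesion receptor, was 6.14 and 6.16 against 8.59 and 7.59, a difference of 1.94 (standard error 0.28, adjusted p = 0.038). Cxcl1 and Bcl3 passed with identical clusters counted once, while Tifa, Map3k8, Hcar2 and Pvr did not.

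The Cxcl1 promoter shows the known NF-kappa B element of this gene and is printed for that reason. The letters GGGAA or GGGAC followed directly by TTTCC were in 0.244% of all promoters on either strand. Counted by gene, they were in 0.281% of all genes with a promoter and in 2 of 19 chemokines with a promoter in the table. In Cxcl1 the match, in capitals, lies 71 to 62 bases before the start, within chr5:90891125-90891244 on the plus strand.

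Cxcl1: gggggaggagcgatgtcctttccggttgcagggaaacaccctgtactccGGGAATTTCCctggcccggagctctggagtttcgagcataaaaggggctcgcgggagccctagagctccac

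Of 11 neutrophil markers measured, 8 had higher and 3 had lower means in 42Y, with differences down to -0.29 and mostly low signals. Retnlg, a resistin-like protein of neutrophils, rose from 3.94 and 4.11 to 5.23 and 5.62, by 1.40 (standard error 0.20, adjusted p = 0.035), the only call among them and one lost with identical clusters counted once (adjusted p = 0.055). Mmp8 was 2.74 and 3.21 against 4.11 and 4.06 (adjusted p = 0.10) and S100a9 was 5.54 and 5.58 against 6.00 and 6.61 (adjusted p = 0.32). Their median level was 4.25 and 4.11 in 16Y against 4.35 in each 42Y array, and whether more of these cells took part in the rise of Cxcl1 was not tested. In bulk tissue fewer cells of a type and less RNA per cell cannot be told apart. None of the 12 Kupffer cell genes (median -0.15), 13 T and NK cell genes (0.00) or 12 stellate cell and fibroblast genes (-0.03) was called. All 12 Kupffer cell genes had lower means in 42Y, as did 10779 of all 19938 genes, and none had an unadjusted p under 0.05.

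Immediate early genes had higher means in 42Y in 23 of 24 members, with a median of 0.59, where 9159 of all 19938 genes had higher means. Klf6, a zinc finger factor induced by injury, was the 1 that passed, with 5.74 and 5.72 in 16Y against 8.13 and 7.19 in 42Y, a difference of 1.93 (standard error 0.28, adjusted p = 0.039). Counting identical clusters once removed that call (adjusted p = 0.057). At an unadjusted p under 0.05, 13 were higher and none lower, beside 6.02% of all genes higher. Egr1 was 6.59 and 5.77 against 9.55 and 8.10 (difference 2.65, adjusted p = 0.066), Junb 6.22 and 6.12 against 7.82 and 7.13 (adjusted p = 0.059) and Btg2, an antiproliferative gene, 6.27 and 6.58 against 9.19 and 7.88 (adjusted p = 0.075).

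Array 42Y-1 was the higher of the pair in each of these genes, most in Myc at 9.21 against 6.10 and in Dusp6, a phosphatase of ERK, at 9.93 against 7.89. In 16Y Myc was 5.51 and 5.62. Without array 42Y-2 the fit called 9 immediate early genes, and without array 42Y-1 it called 1. Their part in the other differences was not tested.

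The heat shock chaperones formed the list with the highest median among those described here, at 0.72. Of 22 measured members, 3 rose and none fell, and 18 were higher at an unadjusted p under 0.05, beside 0.211% of all genes called higher and 6.02% higher at the unadjusted level. Hsp90aa1, the inducible cytosolic HSP90, was 10.49 and 10.56 in 16Y against 12.01 and 11.62 in 42Y, a difference of 1.29 (standard error 0.16, adjusted p = 0.035). Its 2 other clusters, which may read near-identical copies, gave 1.25 and 1.22. The 16Y arrays of Hsp90aa1 lay below the other 8, with 11.09 and 11.25 in 6Y and 11.12 and 11.41 in the controls. The difference between 42Y and 6Y was 0.65 and did not pass (adjusted p = 0.12). Hsph1, an HSP110 exchange factor, was 8.19 and 8.12 against 10.14 and 9.49, a difference of 1.66 (standard error 0.24, adjusted p = 0.036). Chordc1, an HSP90 cochaperone, was 7.80 and 7.91 against 8.66 and 8.73, a difference of 0.84 (standard error 0.11, adjusted p = 0.035).

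Stip1, the organiser that joins HSP70 to HSP90, rose outside the list from 7.94 and 8.10 to 9.02 and 9.12, by 1.05 (standard error 0.14, adjusted p = 0.035). It was named after its values were seen. Its 16Y arrays lay below the other 8, with 8.44 and 8.68 in 6Y. Hspa4l was 6.88 and 6.87 against 7.85 and 7.68 (adjusted p = 0.058), and Hspe1, the mitochondrial cochaperonin, 10.04 and 9.90 against 10.54 and 10.74 (adjusted p = 0.071). Dnajb1 reached 9.82 in array 42Y-1 and 7.78 in 42Y-2, from 7.10 and 6.66 (adjusted p = 0.19).

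Of the 22 listed chaperones, 2 passed as higher in 42Y than in 42W KK, beside 0.537% of all genes, and neither was called against 16Y. Hspb8, a small heat shock protein, was 10.12 and 10.09 in 16Y, 9.60 and 9.65 in 42W KK and 10.98 and 10.68 in 42Y, with 42Y minus 42W KK at 1.21 (adjusted p = 0.018). Fkbp5, an HSP90 cochaperone induced by glucocorticoids, was 9.37 and 9.75, 7.17 and 7.46, and 9.32 and 9.33 in the same order, with 42Y minus 42W KK at 2.01 (adjusted p = 0.043). In the called chaperones and Stip1 the difference between 42Y and 42W KK was -0.02 for Hsp90aa1, 0.29 for Hsph1, -0.13 for Chordc1 and -0.01 for Stip1, whereas 42W KK exceeded 16Y by 1.30, 1.37, 0.98 and 1.06 (adjusted p = 0.028, 0.0501, 0.022 and 0.033). The 42W KK arrays lack the A-y allele. A p over the threshold does not show that 42Y and 42W KK were alike, and these values share arrays with the main comparison. Of the members that rose, Hsph1 was not called with identical clusters counted once.

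Heat shock elements, the inverted repeats bound by HSF1, were searched in the same promoters as 3 alternating units of GAA and TTC with 2 free bases between neighbours, starting with either unit, which covers both strands. They occurred in 0.603% of all promoters. Counted by gene, they were in 0.662% of all genes with a promoter and in 4 of the 19 listed chaperone genes with a promoter in the table, Hspe1, Hspd1, Hsph1 and Chordc1. The stretches are shown for 3 of them, with matched letters in capitals and overlapping matches joined. Hspe1 covers the 120 bases before the start (chr1:55088028-55088147, plus strand), Chordc1 a window across the start (chr9:18292260-18292288, plus strand) and Hsph1 a window after it (chr5:149636287-149636308, minus strand).

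Hspe1: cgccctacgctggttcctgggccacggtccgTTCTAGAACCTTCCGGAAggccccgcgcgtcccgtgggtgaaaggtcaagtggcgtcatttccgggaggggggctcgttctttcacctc
Chordc1: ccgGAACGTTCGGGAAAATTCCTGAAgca
Hsph1: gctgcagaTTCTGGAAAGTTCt

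**Figure D4:**
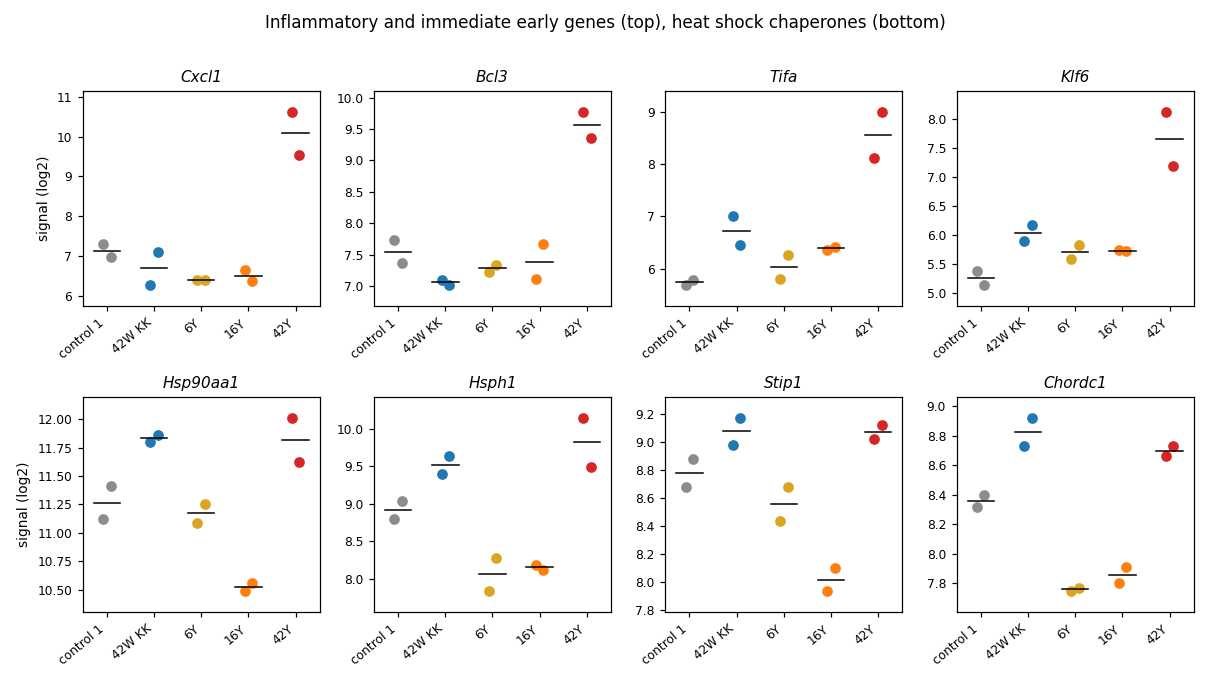
Log2 signal of Cxcl1, Bcl3, Tifa and Klf6 (top) and of Hsp90aa1, Hsph1, Stip1 and Chordc1 (bottom) in each array (points) with group means (lines), by group. The top genes are high in 42Y alone, whereas the bottom genes are higher in both 42Y and 42W KK than in 16Y. For Hsp90aa1 and Stip1 the 16Y arrays are the lowest of the panel.

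Hmox1, heme oxygenase, was the 1 called gene of 24 NRF2 targets, whose median was 0.17. Its signals were 7.26 and 7.49 in 16Y against 8.76 and 8.59 in 42Y, with 8.56 and 8.28 for 42W KK, and it rose by 1.31 (standard error 0.19, adjusted p = 0.036). This call was lost with identical clusters counted once (adjusted p = 0.056). Osgin1, a growth inhibitor induced by oxidative stress, was 7.24 and 7.31 against 8.92 and 8.79 (difference 1.58, standard error 0.18, adjusted p = 0.035), and in 6Y it was 8.69 and 8.68.

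The unfolded protein and integrated stress response list had 14 of 25 members higher and 3 lower at an unadjusted p under 0.05 (6.02% and 6.52% of all genes), a median of 0.48 and no called gene. Hyou1, a chaperone of the endoplasmic reticulum, was 9.74 and 9.89 in 16Y against 10.67 and 10.70 in 42Y (adjusted p = 0.071), and Xbp1, a factor of the unfolded protein response, 9.22 and 9.70 against 10.77 and 10.28 (adjusted p = 0.099). Atf3, which belongs to the immediate early list as well, was 5.14 and 4.96 against 7.20 and 6.16 (adjusted p = 0.085).

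**Figure D5:**
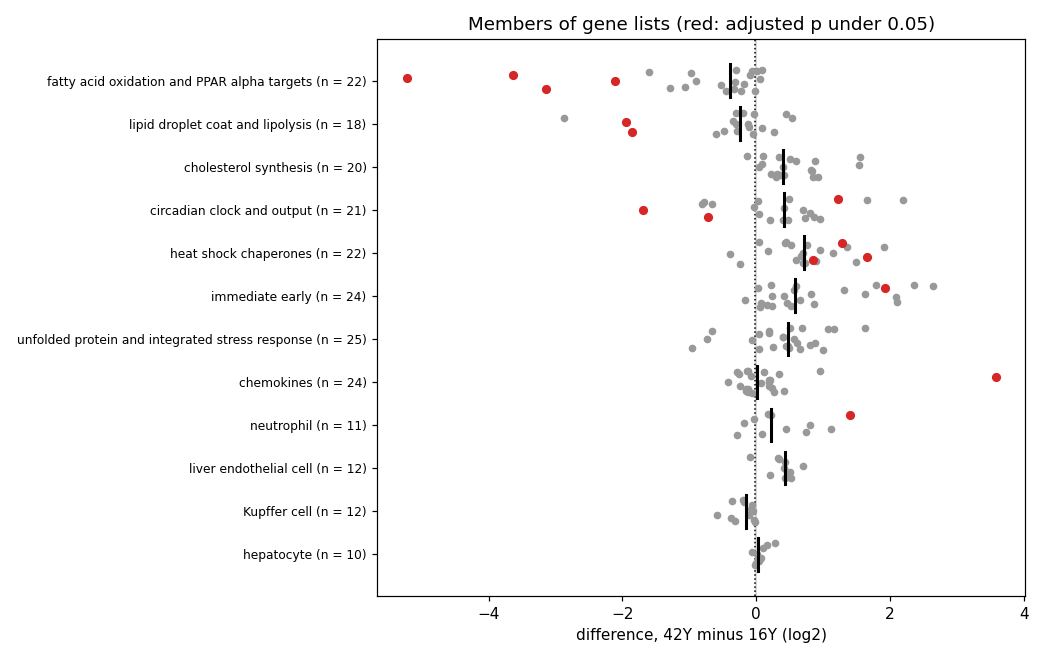
Difference between 42Y and 16Y (log2) for each measured member of 12 gene lists, with list medians as black bars, called genes in red and the median of all genes (-0.02) as a dotted line. Heat shock chaperones have the highest median shown (0.72) and fatty acid oxidation the lowest (-0.39).

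Hormones and signalling genes were also among the called genes. Nrg4, an EGF-family ligand, was 6.51 and 6.80 in 16Y against 8.63 and 8.10 in 42Y, a difference of 1.71 (standard error 0.25, adjusted p = 0.040). Inhbb, which encodes the activin B subunit, was 4.99 and 4.67 against 6.34 and 6.34, a difference of 1.51 (standard error 0.16, adjusted p = 0.033). Sik1, a kinase induced by cyclic AMP, was 6.49 and 6.64 against 7.85 and 8.19 (difference 1.45, adjusted p = 0.036) and was the 1 called gene of 23 in the insulin signalling list.

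Other large rises were those of Tgm1, a transglutaminase (2.05, adjusted p = 0.049), D10Wsu102e (2.0, adjusted p = 0.035) and B4galt5, a galactosyltransferase of glycolipid synthesis (1.59, adjusted p = 0.024). In D10Wsu102e and B4galt5 the 42Y arrays lay above the other 8, as they did in Nrg4, Inhbb and Sik1. Nrg4, Sik1 and Tgm1 did not pass with identical clusters counted once.

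The insulin receptor substrates went in opposite directions without passing. Irs2 was 6.16 and 6.10 in 16Y against 7.23 and 6.97 in 42Y (adjusted p = 0.056), and Irs1 was 7.56 and 7.61 against 6.88 and 6.89 (adjusted p = 0.081). Socs3, a feedback inhibitor of cytokine signalling, was 5.91 and 6.08 against 8.42 and 7.14 (adjusted p = 0.12), and Cish, its relative induced by growth hormone, 4.78 and 5.26 against 7.65 and 6.79 (adjusted p = 0.10). Hsd3b5, a male-specific enzyme of the growth hormone axis, was 8.22 and 8.05 against 9.20 and 8.93 (adjusted p = 0.054).

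Nt5c2 and Fut8, on which the study centres, did not pass. Nt5c2, a nucleotidase, was 7.36 and 7.18 in 16Y against 6.97 and 7.01 in 42Y (difference -0.28, standard error 0.12, adjusted p = 0.39). Fut8, the core fucosyltransferase, was 5.83 and 5.70 against 5.51 and 5.58 (difference -0.22, standard error 0.14, adjusted p = 0.56). In both genes each 42Y array lay below each 16Y array, as in 24.0% of all genes.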

How the data were processed

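Log2 signals of 35556 transcript clusters were deposited by the authors, made with Affymetrix Expression Console (submitters' processing notes) and the robust multichip analysis that the methods name. The methods name a mouse exon array, whereas the cluster numbers belong to the mouse gene array. Its genome build was not given in the sources used. The 10 arrays with a settled group (42Y, 16Y, 6Y, 42W KK and controls labelled 1) were fitted with group means in limma 3.58.1 (R 4.3.3, lmFit and eBayes without trend). The 2 arrays titled 6K were left out because the records conflict, so statements on other arrays cover only the 10 in the fit. Adjustment was by Benjamini-Hochberg over all clusters, and an exact permutation test of 2 arrays against 2 cannot go below p = 0.333. Of the clusters, 21789 carried 1 symbol in the platform annotation.

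The members and the 32 pathway and 14 cell type lists were chosen with earlier results of these data known. Named were the 15 largest called differences in each direction whose arrays did not overlap (predicted and small RNA genes counted but not named), up to 4 genes per list by p, the core clock, the sex markers and the genes of the study. Vnn1, Ehhadh, Crat, Pex11a, Ciart, Noct, Stip1, Hspe1, Map3k8, Dnajb1, Hspb8, Fkbp5, Myc and Dusp6 stand outside this rule and were named after their values were seen. Lists are described by counts and medians without a set test. Alternatives covered normalization, filters, the prior, array weights, the arrays in the fit, ANOVA, a replicate block, each array left out and, chosen after seeing the data, identical clusters counted once. Precision is limited by the number of arrays. Promoter sequences and motif positions come from RefSeq, GRCm38.p6.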

Additional observations from a re-analysis of the deposited data

How the results depend on the processing

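Against 186 clusters called (58 higher and 128 lower, 31.2% higher), quantile normalization gave 196 (70 and 126) and median centring 200 (96 and 104, 48.0% higher). There were 711 (332 and 379) where the mean log2 reached 6, 348 (184 and 164) with 1 gene symbol and 355 (188 and 167) without small RNA and unnamed clusters. Counting identical clusters once, chosen after seeing the data, gave 58 (25 and 33). A variance trend gave 373 (153 and 220) and array weights 112 (27 and 85), and the cause was not tested. limma on the 4 arrays alone, or on the 6 arrays of 6Y, 16Y and 42Y, called 0, with 3481 and 4004 at an unadjusted p under 0.05, from fewer samples. An ANOVA of the 2 groups, used in place of the comparison software that the methods name, gave 2817 unadjusted (1282 and 1535) and 0 adjusted. Leaving out 1 array gave 0 to 308 (0 to 122 higher, 0 to 186 lower), where a lone array is assumed to vary like the other groups. The replicate block gave 158 (49 and 109), of which 134 were among the 186, and the numbers did not pair the arrays, with correlations of deviations from -0.036 to 0.052. Chaperones called ranged from 0 to 13 of 22. Raly (0.02) ranged from -0.068 to 0.12 with 1 array left out and was below 0 without 16Y replicate 2 and without 42Y replicate 2 (-0.04).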

Other observations

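A few further genes had values that stand apart without being called. Igfbp1, an insulin-repressed binding protein, was 10.58 and 10.50 in 16Y against 12.38 and 11.22 in 42Y (difference 1.26, adjusted p = 0.18 from limma). Gadd45a, a stress gene of DNA repair and demethylation, differed by 2.04 (adjusted p = 0.13). Hjv, hemojuvelin of the iron pathway, was 7.81 and 7.97 against 6.37 and 6.86 (adjusted p = 0.059). Lpl, lipoprotein lipase, was 5.62 and 5.67 against 7.01 and 6.62 (adjusted p = 0.28).

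Liver endothelial genes had higher means in 42Y in 11 of 12 members, with a median of 0.43 and no called gene. Clec4g, a lectin of sinusoidal endothelium, was 8.03 and 8.42 in 16Y against 9.10 and 8.75 in 42Y (adjusted p = 0.21), Kdr 7.09 and 7.24 against 7.62 and 7.57 (adjusted p = 0.34) and Tie1 5.88 and 6.2 against 6.63 and 6.47 (adjusted p = 0.24). The list's median level was 7.77 and 7.72 in 42W KK, beside 7.74 and 7.54 in 42Y and 7.14 and 7.36 in 16Y.

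Of the macrophage genes induced by lipid, Gpnmb was 5.49 and Mmp12 5.48 in array 42Y-2, while array 42Y-1 had 3.99 and 4.09 and the 16Y arrays lay between 3.43 and 3.89. None of the 10 members of that list was called. Of 375 small RNA clusters with 1 symbol 0 were called by limma, with 45 at an unadjusted p under 0.05 and a median difference of -0.02.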
